A study of Mus musculus with 16 samples.

Results

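The genes described here encode AP-1 subunits and a Maf protein, and they were chosen by symbol: *Jun*, *Junb*, *Jund*, *Fos*, *Fosb*, *Fosl2*, *Batf*, *Batf3* and *Maf*, 9 of the 54347 genes in the deposited count table. Their RNA was measured in bone marrow cells of UREΔ mice, which lack the upstream regulatory element (URE) of *Spi1*, the gene of the transcription factor PU.1, and of wild-type (WT) littermates. All mice were 8 to 12 weeks old and on a C57BL/6 background. After enrichment for c-Kit, LSKs (Lin-Sca-1+c-Kit+ cells, the compartment of stem cells and multipotent progenitors) and GMPs (Lin-Sca-1-c-Kit+Cd16/32+ cells, the granulocyte-monocyte progenitors) were sorted, with 4 mice per genotype and cell type and 16 libraries in all. Each gate was set by surface markers and can hold another mix of cells in each genotype. Whether an LSK and a GMP library of the same number came from 1 mouse is not stated. In such bulk samples, fewer cells of a type and less RNA per cell cannot be told apart.

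AP-1 is a family of dimers. Jun proteins pair with themselves or with Fos, ATF or BATF proteins through a leucine zipper and bind a short palindromic element in promoters and enhancers. *Fos*, *Fosb*, *Jun* and *Junb* are classical immediate early genes, which are induced within minutes of growth factor or stress signals through MAP kinases and the serum response factor SRF, whereas *Jund* is usually transcribed at a steadier level. In myeloid cells c-Jun acts as a coactivator of PU.1, JunB restrains the expansion of myeloid progenitors, BATF and BATF3 bind DNA together with the interferon regulatory factors IRF4 or IRF8, and c-Maf, a large Maf protein with a related zipper, is known from macrophages and T helper cells.

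Total counts lay between 20028302 and 29128858 per library, so that on these totals 3 counts correspond to 0.103 to 0.150 CPM (a count scaled to the same total in every library). Levels are given as CPM on TMM-scaled library sizes, and differences as log2 fold changes fitted in edgeR (quasi-likelihood F test). Adjusted p values are those of Benjamini and Hochberg over all genes that passed the count filter of a comparison. Called genes had an adjusted p below 0.05 and changed more than 1.5-fold. *Spi1* itself averaged 125 ± 40 CPM (SD, n = 4) in WT LSKs and 3.05 ± 1.41 CPM in UREΔ LSKs, and 139 ± 38.1 CPM in WT GMPs and 20.8 ± 5.59 CPM in UREΔ GMPs, with no overlap between the genotypes. The summed markers of LSKs were higher in LSK libraries than in GMP libraries and those of GMPs the reverse, without overlap. Summed Y-linked genes were high (7.78 to 8.48 log2 CPM) in 3 of 4 WT and 1 of 4 UREΔ libraries of each cell type and at most -1.38 log2 CPM in the others, so that sex and genotype were not balanced. A main source of spread was the replicate number. Replicates 1 and 4 of every group differed from replicates 2 and 3 in many genes, as given below for *Junb* and *Batf*.

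In the GENCODE M21 annotation of GRCm38, *Jun* lies at chr4:95049034-95052222 (minus strand, 1 exon), *Junb* at chr8:84974484-84978718 (minus), *Jund* at chr8:70698949-70700616 (plus, 1 exon), *Fos* at chr12:85473890-85477273 (plus) and *Fosb* at chr7:19302696-19310051 (minus). *Fosl2* lies at chr5:32135801-32157842 (plus), *Batf* at chr12:85686669-85709087 (plus), *Batf3* at chr1:191097847-191108945 (plus) and *Maf* at chr8:115682942-115707794 (minus). The libraries were unstranded, so the strand of a read does not tell apart exons that overlap a gene on the other strand. The counts there rest on estimates per transcript. Such an overlap covers 173 of the 2301 exonic bases of *Junb* (with *Prdx2*, which had 3878 to 12497 counts per library), 232 of 3189 in *Jun* (with *Junos*, at most 7 counts), 440 of 8241 in *Maf* (with *Gm15655*, at 0 in 14 libraries and at most 23 counts) and 877 of 1668 in *Jund* (with *Gm11175*, at 0 in all 16 libraries). The remaining members overlap no exon of another gene.

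Promoter sequence was available from RefSeq (GRCm38.p6) for 8 of the 9 members, from 250 bases before to 50 bases after the annotated start. *Maf* has no entry. Both strands were searched for the AP-1 element TGANTCA, its cyclic AMP response variant TGACGTCA, the CArG box bound by SRF, and the PU.1-type element GAGGAAGT. These occur in 7.81%, 1.79%, 1.63% and 3.20% of the 32851 promoters of this length, and in 0 of the 8 member promoters. After these sequences had been read, a looser AP-1-like element, TGACNTCA (8.83% of all promoters; it includes TGACGTCA), and the short ETS core AGGAAG (35.4% of all promoters; it shares bases with GAGGAAGT) were added. TGACNTCA was found in *Jun*, and AGGAAG in *Batf3*, *Fos* and *Junb*. A match is only a match of letters in this window. The promoters of *Jun* and *Fos*, which were called between the cell types, and of *Batf3*, whose genotypes did not overlap in either cell type, are shown 5′ to 3′ on the strand of the gene, with these matches in capitals.
*Jun*, chr4:95052173-95052472, minus strand: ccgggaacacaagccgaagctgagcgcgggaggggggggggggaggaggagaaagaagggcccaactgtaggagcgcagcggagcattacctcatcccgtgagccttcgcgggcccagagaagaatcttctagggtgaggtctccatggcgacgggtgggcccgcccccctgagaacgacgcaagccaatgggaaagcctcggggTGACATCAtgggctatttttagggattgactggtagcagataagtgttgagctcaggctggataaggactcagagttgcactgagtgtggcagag
*Fos*, chr12:85473640-85473939, plus strand: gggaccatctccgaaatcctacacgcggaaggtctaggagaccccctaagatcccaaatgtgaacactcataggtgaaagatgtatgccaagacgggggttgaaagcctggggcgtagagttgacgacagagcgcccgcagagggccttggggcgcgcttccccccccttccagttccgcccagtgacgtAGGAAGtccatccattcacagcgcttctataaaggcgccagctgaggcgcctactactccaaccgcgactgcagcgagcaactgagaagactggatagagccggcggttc
*Batf3*, chr1:191098164-191098463, plus strand: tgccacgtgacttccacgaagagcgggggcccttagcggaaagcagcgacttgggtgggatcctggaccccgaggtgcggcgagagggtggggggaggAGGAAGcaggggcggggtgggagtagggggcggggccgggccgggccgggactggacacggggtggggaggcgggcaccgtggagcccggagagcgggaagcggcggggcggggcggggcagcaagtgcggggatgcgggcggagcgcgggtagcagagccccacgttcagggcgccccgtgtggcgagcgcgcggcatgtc
The match in *Jun* starts 45 bases before the annotated start, that in *Fos* 60 bases before it, next to the letters tgacgt and upstream of a TATAAA (found in 13.6% of all promoters) at 33 bases, and that in *Batf3* 152 bases before it. These starts are those of RefSeq and can differ from the GENCODE gene bounds above. The *Batf3* window and that of *Fosl2* (chr5:32136222-32136521) lie inside their GENCODE genes, downstream of the first base. The *Jund* window (chr8:70697489-70697788) ends before the first base of its GENCODE gene and does not cover it.

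Levels were compared between members per kilobase of exon (CPM per kb), as means ± SD over the 4 libraries of a group. The length is that of all annotated exons merged, which can exceed the longest transcript. Examples are *Fosb* (6243 against 3782 bases), *Fosl2* (9680 against 6537), *Maf* (8241 against 6360) and *Batf* (1406 against 955). The order between genes depends on this choice, and levels were not corrected for GC. By group mean, *Batf* and *Junb* were the most abundant members in every group, at 31.0 ± 6.71 and 23.5 ± 18.3 CPM per kb in WT LSKs. The ranges of these genes overlapped in all 4 groups. *Jun* followed in WT LSKs (4.93 ± 1.57 CPM per kb), with a range apart from both neighbours. *Fosl2* (1.09 ± 0.48), *Jund* (0.66 ± 0.33), *Maf* (0.60 ± 0.28) and *Fos* (0.58 ± 0.23 CPM per kb) followed with overlapping ranges, and *Batf3* (0.23 ± 0.21) and *Fosb* (0.008 ± 0.016 CPM per kb) came last. In UREΔ LSKs *Maf* ranked below *Jun*, at 6.56 ± 1.46 CPM per kb, with a range that overlapped that of *Jun* (8.33 ± 3.69) and lay above that of *Jund* (0.76 ± 0.35 CPM per kb). In WT GMPs *Fos* (1.34 ± 0.48), *Jun* (1.15 ± 0.52) and *Fosl2* (1.15 ± 0.79 CPM per kb) had overlapping ranges, and *Maf* (0.195 ± 0.038 CPM per kb) stood above *Fosb* alone. In WT GMP replicate 3, *Junb* (1.64 CPM per kb) lay below *Jun* (1.73 CPM per kb).

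**Figure D1:**
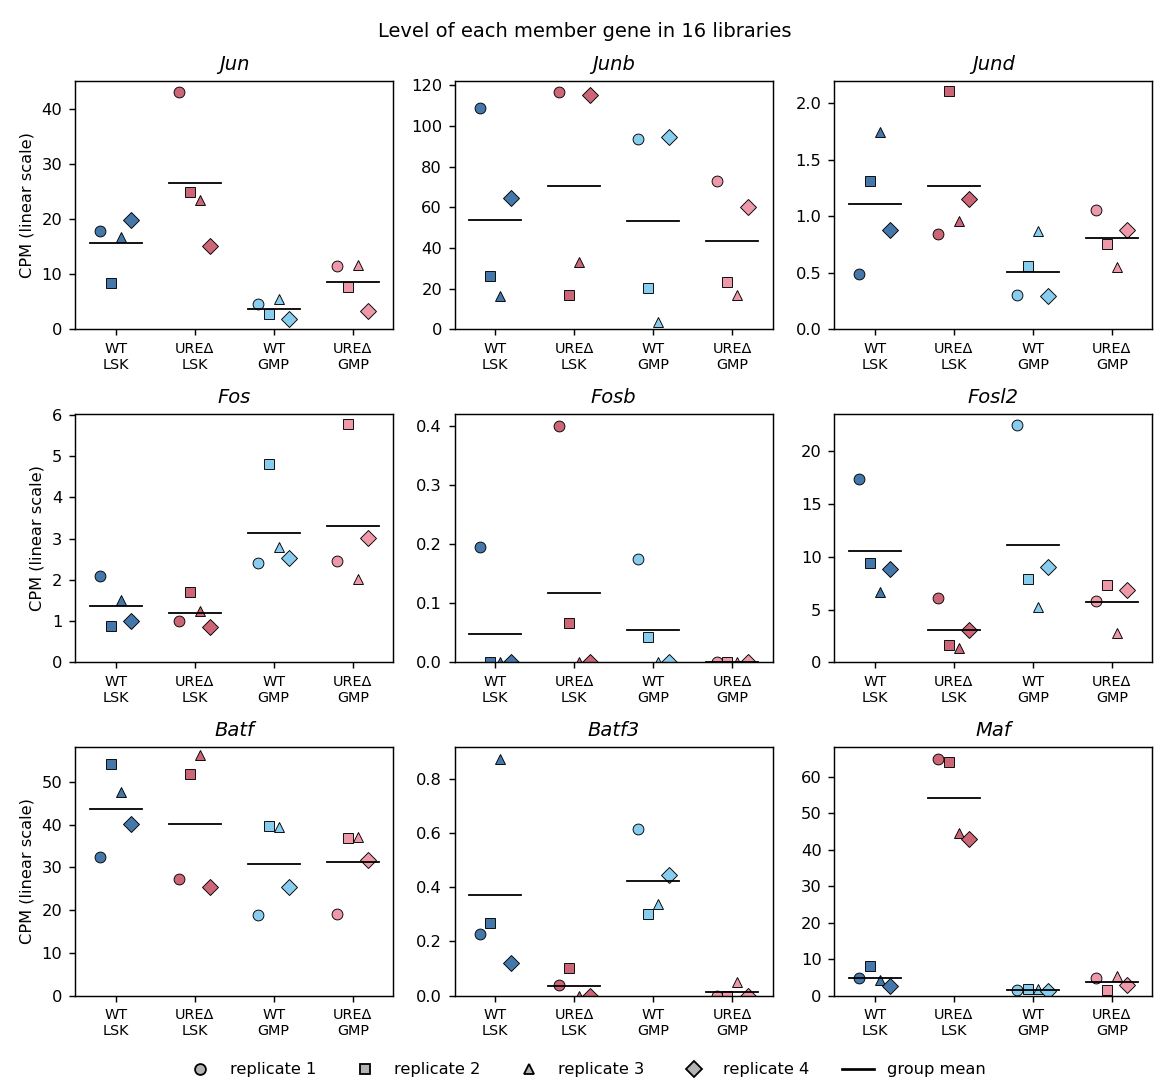
Level of the 9 members in CPM on a linear axis (a separate scale per gene) in the 4 groups, with 1 point per library, the shape giving the replicate number and the bar the group mean. *Maf* in UREΔ LSKs (42.8 to 64.9 CPM) lies above all other libraries, and *Junb* is high in replicates 1 and 4 of every group.

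The first comparison asked which members differed between UREΔ and WT LSKs. *Maf* rose. No other member passed the main test, and *Fosl2* passed with the replicate block, by DESeq2 and without UREΔ replicate 1. *Maf*, the only large Maf factor among the members, measured 4.75, 8.06, 4.22 and 2.64 CPM in WT LSKs (replicates 1 to 4) and 64.9, 64.0, 44.6 and 42.8 CPM in UREΔ LSKs. All 4 UREΔ libraries thus lay well above the highest WT library. The log2 fold change was 3.42 ± 0.35 (SE; 10.7-fold, adjusted p = 0.000652), and it stayed between 3.21 and 3.77 when each library in turn was left out, with the call kept in all 8 cases. *Maf* was the only one of the 7 members tested that was called, where 6.14% of all 15154 genes tested were called. By range, *Maf* was higher and *Fosl2* lower without overlap, where 12.6% of all genes tested had groups that did not overlap.

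Several marker lists held genes that were called higher in UREΔ LSKs beside *Maf*, although the genes of a list did not all go one way and the sums of the NK and megakaryocyte lists overlapped between the genotypes. Of 7 mast cell, basophil and eosinophil markers, 2 of the 5 tested were called higher (*Mcpt8* and *Cpa3*) and *Ms4a2* lay lower without overlap (log2 fold change -2.74, adjusted p = 0.113), with sums of 29.8 to 46.4 CPM in WT and 93.4 to 155 CPM in UREΔ LSKs. Of 6 neutrophil markers, all 6 were tested and 1 was called higher (*Ngp*; 4 with the replicate block), with sums of 35.4 to 180 and 182 to 361 CPM. Of 6 NK and innate lymphoid markers, 1 of the 4 tested was called higher (*Gata3*) and *Il7r* lay lower without overlap (-3.93, adjusted p = 0.0929, and 0.0182 with the block), at a list median of -0.03 and sums of 174 to 357 and 331 to 476 CPM. Of 5 megakaryocyte markers, 1 was called higher (*Itga2b*), with sums of 56.8 to 80.0 and 63.7 to 744 CPM. No marker of these 4 lists was at 0 in either LSK group, but several averaged below 1 CPM. These were *Epx*, *Ncr1* and *Gzma* in both genotypes, *Fcer1a* in WT LSKs, and *Ms4a2* and *Il7r* in UREΔ LSKs. The part of such cells in the level of *Maf* was not tested. Of 6 T cell markers, *Cd4* alone was tested and was called lower. Their sum was 3.30 to 7.53 CPM in WT and 0.514 to 1.87 CPM in UREΔ LSKs, and the 5 others averaged below 1 CPM in both genotypes (*Cd3d*, *Cd3e* and *Cd8a* at 0 in UREΔ LSKs), and of 6 macrophage markers, 0 were called by edgeR, although all 6 fitted values were below 0 (median -0.77, sums of 65.0 to 125 and 49.2 to 73.7 CPM). The sums of 6 monocyte markers (58.2 to 111 CPM in WT and 18.1 to 34.7 CPM in UREΔ LSKs) and of 6 B cell markers (57.9 to 85.1 and 25.7 to 36.0 CPM) were also lower in UREΔ LSKs without overlap. Of 7 GMP markers, 1 was called higher and 2 lower in UREΔ LSKs (2 and 2 with the block). Their sums overlapped, at 1007 to 1646 CPM in WT and 716 to 1521 CPM in UREΔ LSKs.

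*Fosl2*, which encodes the Fos family member Fra-2, had the lowest log2 fold change of the 7 members tested in LSKs. It measured 17.4, 9.41, 6.69 and 8.85 CPM in WT LSKs and 6.09, 1.64, 1.33 and 3.08 CPM in UREΔ LSKs. Every UREΔ library lay below every WT library (exact two-sided permutation p = 0.0286, the smallest that 4 against 4 can give). The log2 fold change was -1.85 ± 0.51 with an adjusted p of 0.0724 in edgeR, so that it was not called. With the replicate number as a block it was -1.99 (adjusted p = 0.00411), and by DESeq2 the adjusted p was 0.00725. Over all genes in LSKs, the block called 1433 and DESeq2 1638, against 930 in the main test. Without UREΔ replicate 1, the highest of its group, the log2 fold change was -2.42 (adjusted p = 0.0242), and with the Y-linked level in the model the adjusted p was 0.175.

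*Jun* encodes c-Jun, the founding AP-1 subunit. In LSKs it measured 17.8, 8.47, 16.7 and 19.9 CPM in WT and 43.0, 24.8, 23.5 and 15.0 CPM in UREΔ mice. Replicates 1, 2 and 3 of UREΔ lay above all WT libraries and replicate 4 did not. The log2 fold change was 0.71 ± 0.36 (adjusted p = 0.422). *Junb*, *Jund* and *Fos* had log2 fold changes of 0.33 ± 0.70, 0.16 ± 0.51 and -0.22 ± 0.44 with adjusted p values of 0.940 to 0.965, and their groups overlapped. *Jund* rested on 15 to 63 counts per LSK library.

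*Batf*, a small factor without a transactivation domain, measured 32.4, 54.2, 47.8 and 40.1 CPM in WT LSKs and 27.3, 51.9, 56.3 and 25.5 CPM in UREΔ LSKs (log2 fold change -0.14 ± 0.31, adjusted p = 0.945). Its relative *Batf3*, known for the development of a class of dendritic cells, had too few counts for the main test. It had 7, 8, 22 and 3 counts in WT LSKs and 1, 3, 0 and 0 counts in UREΔ LSKs. The scaled ranges did not overlap, but WT replicate 4 and UREΔ replicate 2 both had 3 counts and differed only by library size. The summed counts gave a ratio of WT to UREΔ of 9.24 (95% exact interval 3.34 to 35.6, counting error only). *Fosb* had 6 counts in WT and 10 counts in UREΔ LSK replicate 1, 2 counts in UREΔ replicate 2 and 0 counts in the other LSK libraries.

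In GMPs the same comparison called 0 of the 7 members tested by edgeR, where 8.30% of all 13829 genes tested were called. No tested member had groups that did not overlap, where 14.9% of all genes tested had. At an unadjusted p under 0.05, edgeR had *Jun* and *Maf*. DESeq2 called *Batf3* alone, and edgeR with the replicate block called *Jun* alone. Over all genes in GMPs, DESeq2 called 1984 and the block 2260, against 1148 in the main test. *Jun* measured 4.57, 2.70, 5.51 and 1.94 CPM in WT GMPs and 11.5, 7.73, 11.8 and 3.34 CPM in UREΔ GMPs. Within every replicate number UREΔ was higher, but replicate 4 of UREΔ lay within the WT range. Its log2 fold change was 1.23 ± 0.47 (adjusted p = 0.173), and with the block it was 1.21 ± 0.24 (adjusted p = 0.0118).

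*Maf* measured 1.45, 1.84, 1.89 and 1.24 CPM in WT GMPs and 4.91, 1.51, 5.38 and 2.91 CPM in UREΔ GMPs. UREΔ replicate 2 lay within the WT range and the other UREΔ libraries above it. The log2 fold change was 1.22 ± 0.43 with an adjusted p of 0.132 (0.0957 with the block and 0.0532 by DESeq2). Without UREΔ replicate 2 it was 1.45 (adjusted p = 0.0429). *Fosl2* measured 22.5, 7.89, 5.27 and 9.04 CPM in WT GMPs and 5.83, 7.38, 2.81 and 6.91 CPM in UREΔ GMPs, with a log2 fold change of -0.94 ± 0.47 (adjusted p = 0.312). The genotypes overlapped, although UREΔ was lower within every replicate number.

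*Batf3* had a single count over all 4 UREΔ GMP libraries. It had 14, 7, 7 and 9 counts in WT GMPs and 0, 0, 1 and 0 counts in UREΔ GMPs, and every WT library lay above every UREΔ library. The summed counts, 37 against 1, gave a ratio of 33.6 (95% exact interval 5.66 to 1362, counting error only). It did not pass the filter of the main test. DESeq2 gave an adjusted p of 0.00249, and edgeR without the filter gave 0.0157, whereas the same fits in LSKs gave 0.078 and 0.197. Dendritic cell markers were lower beside it. Their sum over 7 genes was 201 to 314 CPM in WT and 16.3 to 48.6 CPM in UREΔ GMPs, 4 of the 5 tested were called lower, and in LSKs it was 236 to 625 and 84.4 to 281 CPM with 1 of 5 called lower (2 with the block). *Siglech* and *Xcr1* averaged below 1 CPM in all 4 groups, and *Siglech* was at 0 in UREΔ LSKs. Other lists differed in GMPs as well. Of 7 GMP markers, 1 was called higher (5 higher and 1 lower with the block). Their sums were 54535 to 72868 CPM in WT and 72390 to 154083 CPM in UREΔ GMPs. Of 7 LSK markers, 0 were called by edgeR (3 lower with the block), with sums of 448 to 1446 and 668 to 1238 CPM. Of 6 monocyte markers, 5 were called lower (sums of 715 to 1108 CPM in WT and 361 to 1379 CPM in UREΔ GMPs), and of 7 mast cell, basophil and eosinophil markers, 4 were called lower and 1 higher (1183 to 2457 and 1060 to 2568 CPM). Of 6 neutrophil markers, 2 were called higher (5 with the block; 45.5 to 147 and 244 to 994 CPM), and of the 4 NK and innate lymphoid markers tested, 2 were called higher and 1 lower (578 to 971 and 1368 to 2159 CPM). The 1 B cell marker tested of 6 was called lower (62.3 to 85.4 and 8.23 to 23.2 CPM), as was 1 of 6 macrophage markers (83.1 to 198 and 112 to 344 CPM). The part of any of these cells in the levels of the members was not tested.

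*Batf* in GMPs was 18.9, 39.6, 39.4 and 25.4 CPM in WT and 19.2, 36.8, 37.0 and 31.8 CPM in UREΔ mice (log2 fold change 0.04 ± 0.31, adjusted p = 0.969), with SDs of 10.4 CPM in WT and 8.39 CPM in UREΔ GMPs. *Jund* and *Fos* had log2 fold changes of 0.68 ± 0.45 and 0.10 ± 0.39, and *Junb* of -0.28 ± 0.85, with adjusted p values of 0.475 to 0.931. *Fosb* had 4 and 1 counts in WT GMP replicates 1 and 2 and 0 counts in the other GMP libraries, including all of UREΔ.

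**Figure D2:**
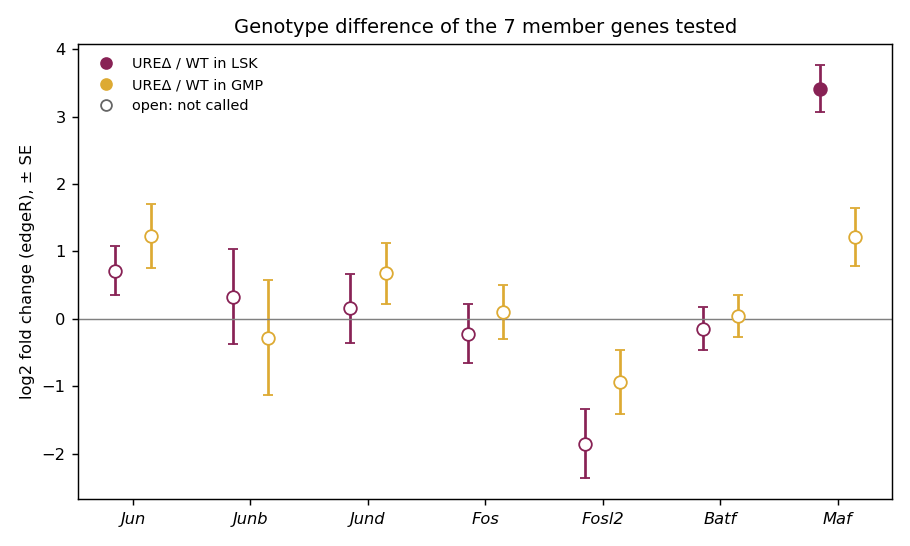
Log2 fold change of UREΔ against WT (edgeR, error bars ± SE) for the 7 members tested, in LSKs and in GMPs; filled points were called. *Maf* in LSKs (3.42) is the one filled point, *Fosl2* lies below 0 and *Jun* above 0 in both cell types without being called.

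Whether the genotype difference itself differed between GMPs and LSKs was asked with an interaction term fitted to the 16 libraries together. None of the 7 members passed at an adjusted p under 0.05, where 1.22% of all 15935 genes tested passed. *Maf* was the only member with an unadjusted p under 0.05. Its difference was smaller in GMPs by 2.23 ± 0.53 on the log2 scale (interaction term -2.23, adjusted p = 0.0542). It passed with the replicate block (adjusted p = 0.0150), by DESeq2 (0.00372), with the summed Y-linked genes in the model (0.0333), without UREΔ GMP replicate 3 (0.0330) and without WT LSK replicate 2 (0.0334). It did not pass in the other 14 fits that left out a library (adjusted p up to 0.124), in replicates 1 and 4 (0.0951) or 2 and 3 (0.936) alone, without the filter (0.0656) or on library totals (0.0663). Over all genes, 1047 passed with the block, 619 by DESeq2 and 150 with the Y-linked genes, against 194 in the main test. The terms of the other members lay between -0.65 and 0.89 with adjusted p values of 0.769 or above. For comparison, the term of *Spi1* was 2.64 ± 0.52 (adjusted p = 0.0218), since its deficit was larger in LSKs.

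The comparison of GMPs with LSKs within a genotype asked how the members change between these progenitor stages. In both genotypes *Jun* and *Maf* fell and *Fos* rose, and the other 4 members tested were not called. That is 3 of 7 members in WT, where 27.3% of all 14767 genes tested were called, and 3 of 7 in UREΔ, where 21.8% of all 14395 genes tested were called. The same 3 members had groups without overlap in each genotype, where 31.3% of all genes tested in WT and 26.6% in UREΔ had such groups. On library totals in place of TMM sizes, the median of all genes moved by -0.33 in WT and by -0.31 in UREΔ on the log2 scale. Markers of other cells differed too. In WT GMPs 6 of 6 monocyte and 7 of 7 mast cell, basophil and eosinophil markers were called higher, 3 of 6 erythroid markers were called higher, and of the 4 NK and innate lymphoid markers tested 3 were called lower and 1 higher. In UREΔ GMPs 4 of 6, 5 of 7 and 3 of 6 were called higher, and of 3 NK and innate lymphoid markers 1 was called lower and 1 higher. Of the dendritic cell markers, 1 was called higher and 2 lower in WT and 2 lower in UREΔ, of the megakaryocyte markers 2 were called higher and 1 lower in WT, and of the neutrophil markers 2 were called higher in UREΔ. The macrophage list had 1 marker called higher in each genotype, and in WT 1 T cell and 1 B cell marker were called lower. The monocyte sum was 58.2 to 111 CPM in WT LSKs and 715 to 1108 CPM in WT GMPs, and that of mast cells, basophils and eosinophils was 29.8 to 46.4 and 1183 to 2457 CPM. The erythroid sum was 32.0 to 45.3 and 139 to 439 CPM, and that of NK and innate lymphoid cells 174 to 357 and 578 to 971 CPM. In UREΔ LSKs and GMPs the sums were 18.1 to 34.7 and 361 to 1379 CPM for monocytes, 93.4 to 155 and 1060 to 2568 CPM for mast cells, basophils and eosinophils, 18.4 to 96.4 and 51.7 to 460 CPM for erythroid cells, and 331 to 476 and 1368 to 2159 CPM for NK and innate lymphoid cells. The part of such cells in the levels of the members was not tested.

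*Jun* fell from 8.47 to 19.9 CPM in WT LSKs to 1.94 to 5.51 CPM in WT GMPs, a log2 fold change of -2.09 ± 0.40 (adjusted p = 0.0044, called in all 8 fits that left out a library). In UREΔ mice it fell from 15.0 to 43.0 CPM to 3.34 to 11.8 CPM, a change of -1.62 ± 0.44 (adjusted p = 0.0273). That call was lost without UREΔ GMP replicate 2 (adjusted p = 0.0745) or without UREΔ LSK replicate 1 (0.0785), and within replicates 1 and 4 (0.0669) or 2 and 3 (0.141) alone. *Maf* changed by -1.61 ± 0.37 in WT (adjusted p = 0.0113) and by -3.86 ± 0.41 in UREΔ mice (14.5-fold, adjusted p = 0.000336), and both calls held without any 1 library. With 2 libraries a group, the WT call of *Maf* was lost in replicates 1 and 4 (adjusted p = 0.0737) and in 2 and 3 (0.0716), and that of *Jun* in replicates 2 and 3 (0.118). The highest UREΔ GMP value, 5.38 CPM, was close to the WT LSK mean of 4.92 CPM.

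*Fos*, the immediate early partner of Jun proteins, went the other way. It measured 2.08, 0.87, 1.51 and 1.0 CPM in WT LSKs and 2.42, 4.80, 2.81 and 2.53 CPM in WT GMPs. In UREΔ mice it measured 1.0, 1.71, 1.25 and 0.86 CPM in LSKs and 2.46, 5.77, 2.01 and 3.01 CPM in GMPs. GMPs lay above LSKs without overlap in both genotypes, and replicate 2 was the highest GMP library in each. The log2 fold changes were 1.19 ± 0.38 (adjusted p = 0.0412) in WT and 1.46 ± 0.44 (adjusted p = 0.0416) in UREΔ mice. These calls were close to the threshold. Each was kept in 2 of the 8 fits that left out a library, with adjusted p values up to 0.117 in WT and 0.136 in UREΔ (both without GMP replicate 2). On library totals the changes were 0.84 (adjusted p = 0.118) and 1.13 (0.0798). Without the count filter neither was called (adjusted p = 0.0745 and 0.0791). In UREΔ the call was also lost on counts thinned to the smallest library (0.0598) and with the Y-linked level in the model (0.0582).

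The remaining members were not called between the cell types. *Jund* was lower in GMPs by its mean in both genotypes, with log2 fold changes of -1.11 ± 0.52 in WT (adjusted p = 0.141, and 0.025 with the block) and -0.63 ± 0.44 in UREΔ (0.346). *Batf* had changes of -0.50 ± 0.28 and -0.36 ± 0.33 (adjusted p = 0.217 and 0.485). For *Batf* in WT the block gave an adjusted p of 0.0047 at a fold change under the threshold of 1.5, and library totals gave -0.84 (0.0441). Over all genes in WT, the block called 6041 and library totals 4476, against 4037 in the main test. *Junb* had changes of -0.01 ± 0.90 and -0.70 ± 0.66. *Fosl2* had changes of 0.07 ± 0.47, which turned to -0.25 on library totals, and 0.93 ± 0.52. *Batf3* had 40 counts in all in WT LSKs and 37 in WT GMPs.

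**Figure D3:**
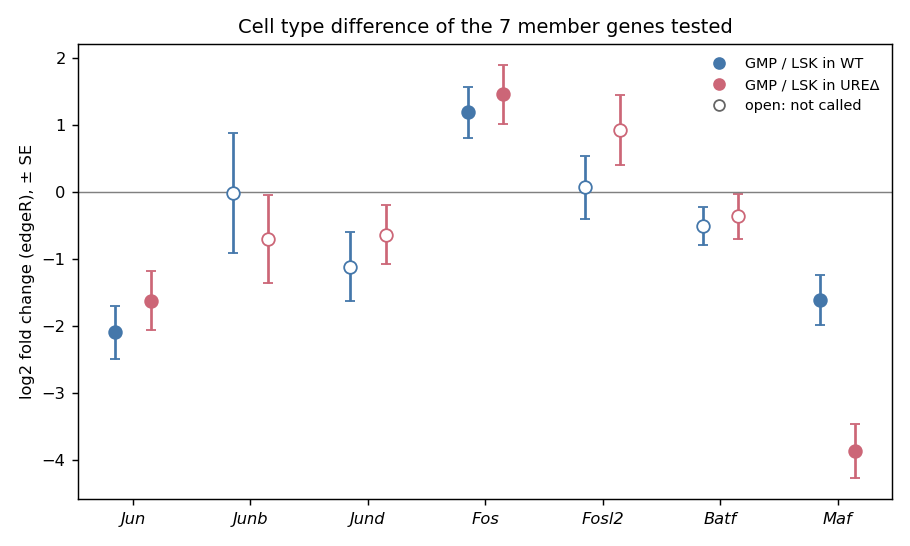
Log2 fold change of GMPs against LSKs (edgeR, error bars ± SE) for the 7 members tested, in WT and in UREΔ mice; filled points were called. *Jun* and *Maf* lie below 0 and *Fos* above 0 in both genotypes, and *Maf* lies at -1.61 in WT and at -3.86 in UREΔ.

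*Junb*, and on TMM sizes also *Batf*, varied with the replicate number more than with genotype or cell type. On library totals, the log2 fold change of *Batf* between the WT cell types was -0.84. *Junb* measured 109, 26.0, 16.6 and 64.3 CPM in replicates 1 to 4 of WT LSKs, and 116, 16.7, 33.1 and 115 CPM in UREΔ LSKs. In GMPs it measured 93.5, 20.4, 3.77 and 94.7 CPM in WT and 73.1, 23.1, 17.0 and 60.0 CPM in UREΔ mice. Replicates 1 and 4 thus lay above replicates 2 and 3 in all 4 groups. Of 9072 genes that averaged 3 log2 CPM or more, 17.3% behaved in this way. *Batf* lay lower in replicates 1 and 4 than in replicates 2 and 3 in all 4 groups, as did 8.90% of these genes. The remaining 7 members showed neither order throughout.

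Averaged over the 4 groups, replicates 1 and 4 exceeded replicates 2 and 3 by 2.36 on the log2 scale for *Junb* and fell short by 0.74 for *Batf* (-0.74). *Maf* differed by -0.20 and *Jun* by -0.06. Of the 7 immediate early genes with such a mean level (*Ier2*, *Dusp6*, *Zfp36*, *Btg2*, *Klf6*, *Ppp1r15a* and *Nfkbia*), 0 shared the order of *Junb* or of *Batf*. The longest transcript of *Junb* has 62.6% GC, above that of 99.6% of these genes, and that of *Batf* 56.6%, above 89.4%. Over 9068 genes, GC and this replicate difference had a Spearman rho of 0.35, a description across genes that share the same libraries and are no independent replicates. *Jund* has 67.1% GC and a difference of -0.52. The labels give no batch, and the part of GC in the levels of *Junb* and *Batf* was not tested. With the replicate number as a block, the genotype difference of *Junb* was 0.29 ± 0.26 in LSKs and 0.27 ± 0.41 in GMPs, and it was not called in either.

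**Figure D4:**
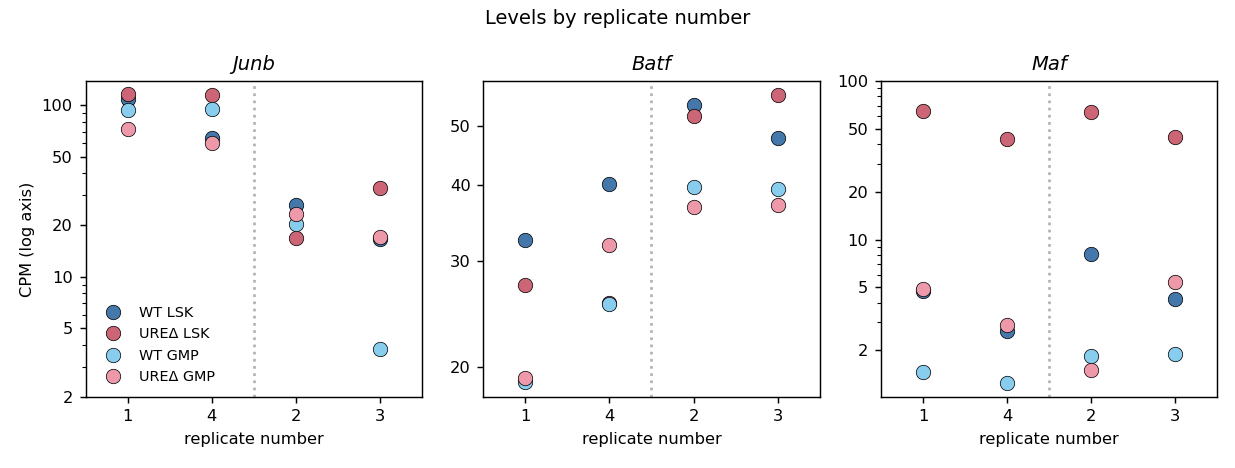
CPM of *Junb*, *Batf* and *Maf* on log axes by replicate number, ordered 1, 4, 2, 3, with 1 point per library coloured by group; the dotted line parts replicates 1 and 4 from 2 and 3. *Junb* lies between 60.0 and 116 CPM left of the line and between 3.77 and 33.1 CPM right of it, *Batf* lies lower on the left within each group, and *Maf* in UREΔ LSKs is high in all 4 replicates.

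The genes with the most similar pattern were sought for the members that reached this average (*Jun*, *Junb* and *Batf*) among 9071 genes over the 16 libraries, which share depth, scaling and replicate effects. For *Jun* these were *A630072M18Rik* (r = 0.89), *Capn2* (0.89) and *Pde7a* (0.88). After the group means were subtracted they were *Srsf11* (0.94), *Ankrd13c* (0.81) and *Camk1d* (0.80). For *Junb* they were *Washc1* (0.99), *Tab1* (0.98) and *Abhd16a* (0.98), and after subtraction *Cxxc1*, *Washc1* and *Pigt* (0.99 each). For *Batf* they were *Zfp729b* (0.95), *Zfp868* (0.93) and *Zfas1* (0.93), and after subtraction *Mzt2* (0.98), *Ppil3* (0.97) and *Rpl38* (0.97). *Junb* and *Batf* ran against each other (r = -0.63, and -0.83 after subtraction), whereas *Jun* followed neither closely (0.11 with *Junb* and 0.27 with *Batf*).

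Among genes that work with the members, 1 other AP-1 subunit was called between the genotypes. Of 6 (*Fosl1*, *Batf2*, *Atf2*, *Atf3*, *Atf7* and *Jdp2*), 5 were tested in LSKs and 3 in GMPs, and 1 was called in each. This was *Batf2*, a relative of *Batf*, with 5.66 ± 1.23 CPM in WT and 1.92 ± 0.86 CPM in UREΔ LSKs (log2 fold change -1.60, adjusted p = 0.0496) and 1.39 ± 0.39 and 0.24 ± 0.07 CPM in GMPs (-2.48, adjusted p = 0.0061). The median log2 fold change of the list was 0.10 in LSKs, beside 0.0009 over all genes tested, and -0.31 in GMPs, beside 0.005. *Irf8*, the IRF partner of BATF proteins in myeloid cells, was lower in UREΔ mice, at 48.4 ± 13.5 against 5.44 ± 2.5 CPM in LSKs (-3.19, adjusted p = 0.000947) and 273 ± 98.6 against 47.4 ± 51.5 CPM in GMPs (-2.51, adjusted p = 0.0428). *Irf4*, the lymphoid partner, averaged 1.02 ± 0.67 CPM in WT LSKs and 0.11 ± 0.14 CPM in UREΔ LSKs (-3.18, adjusted p = 0.105). In GMPs it averaged 0.011 CPM in WT and was at 0 in all UREΔ libraries, and it was not tested between the genotypes there.

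Of 12 other Maf, Bach and cap'n'collar (CNC) factors, 9 were tested in each cell type, and 1 was called in each (with the block, 1 in LSKs and 3 in GMPs). In LSKs *Nfe2*, a CNC factor of megakaryocytes and erythroid cells that dimerizes with small Maf proteins, was called higher, from 493 ± 32.3 to 775 ± 96.9 CPM (log2 fold change 0.61, adjusted p = 0.0359). *Bach2*, a repressor that also dimerizes with small Mafs, fell more steeply from LSKs to GMPs in UREΔ than in WT mice. It averaged 20.5 ± 4.44 CPM in WT and 32.4 ± 9.78 CPM in UREΔ LSKs (0.62, adjusted p = 0.290) and 6.73 ± 2.38 and 2.38 ± 0.77 CPM in GMPs (-1.48, adjusted p = 0.0396, called lower). Between the cell types the log2 fold change was -1.60 in WT (adjusted p = 0.0047) and -3.75 in UREΔ mice (adjusted p = 0.000194), and its interaction term of -2.12 passed (adjusted p = 0.0328).

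No enzyme or factor upstream of AP-1 among those listed was called between the genotypes in the main edgeR test. Of 12 MAP kinase cascade genes, 11 were tested and 0 were called in the main test in either cell type. With the block, 1 was called lower in GMPs. The medians were -0.005 in LSKs and -0.12 in GMPs. The smallest adjusted p was that of *Mapk8*, the gene of the Jun kinase JNK1, in GMPs (-0.82 ± 0.23, adjusted p = 0.0613, and 0.0126 with the block and 0.0115 by DESeq2). SRF and its cofactors (6 tested) and the ligase genes of Jun and Maf degradation *Fbxw7*, *Cop1*, *Itch* and *Det1* had 0 calls in the main test in either cell type. *Fbxw7* was called with the block in GMPs (-0.70, adjusted p = 0.0241). Between the cell types, *Elk3* (-1.10, adjusted p = 0.0131) and *Mrtfb* (-0.91, adjusted p = 0.035) were lower in WT GMPs (4 of 6 with the block), and *Elk4* (-0.73, adjusted p = 0.0178) and *Mrtfb* (-1.38, adjusted p = 0.0071) in UREΔ GMPs.

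Of 26 other immediate early genes, which respond to the same signals as *Fos* and *Jun*, 18 were tested in LSKs, where 2 were called lower and, with the replicate block, 3 more were called higher (*Dusp6*, *Ppp1r15a* and *Socs3*). Those called lower were the antiproliferative gene *Btg2*, at 59.0 ± 7.64 CPM in WT and 18.6 ± 1.39 CPM in UREΔ mice (-1.70, adjusted p = 0.000637), and *Nfkbia*, the NF-kappaB inhibitor (-0.97, adjusted p = 0.0364). In GMPs 19 were tested, with 2 called higher (*Klf6*, 0.87, and *Gadd45b*, 1.95) and 2 lower (*Klf4*, -2.86, and *Dusp5*, -1.78). Over all genes tested, 6.14% were called in LSKs and 8.30% in GMPs. In the interaction, 2 of 21 were called higher (5 higher and 1 lower with the block), where 1.22% of all genes tested passed. From LSKs to GMPs most that changed were lower in GMPs. In WT, 1 of 20 was called higher and 10 lower (3 and 14 with the block), where 27.3% of all genes tested were called in either direction. The median was -1.05 beside -0.09 over all genes, with *Ier3* (-2.21), *Zfp36* (-2.31), *Klf6* (-1.14) and *Egr1* (-2.77) among those that fell. In UREΔ mice 3 of 19 were called higher and 7 lower, where 21.8% of all genes tested were called in either direction. The median was -0.89 beside -0.09, with *Dusp6* (-1.69) and *Nr4a1* (-3.08) lower and *Gadd45b* (3.09) and *Hspa1a* (4.63) higher. *Fos* thus rose where *Jun* and most called genes of this list fell.

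**Figure D5:**
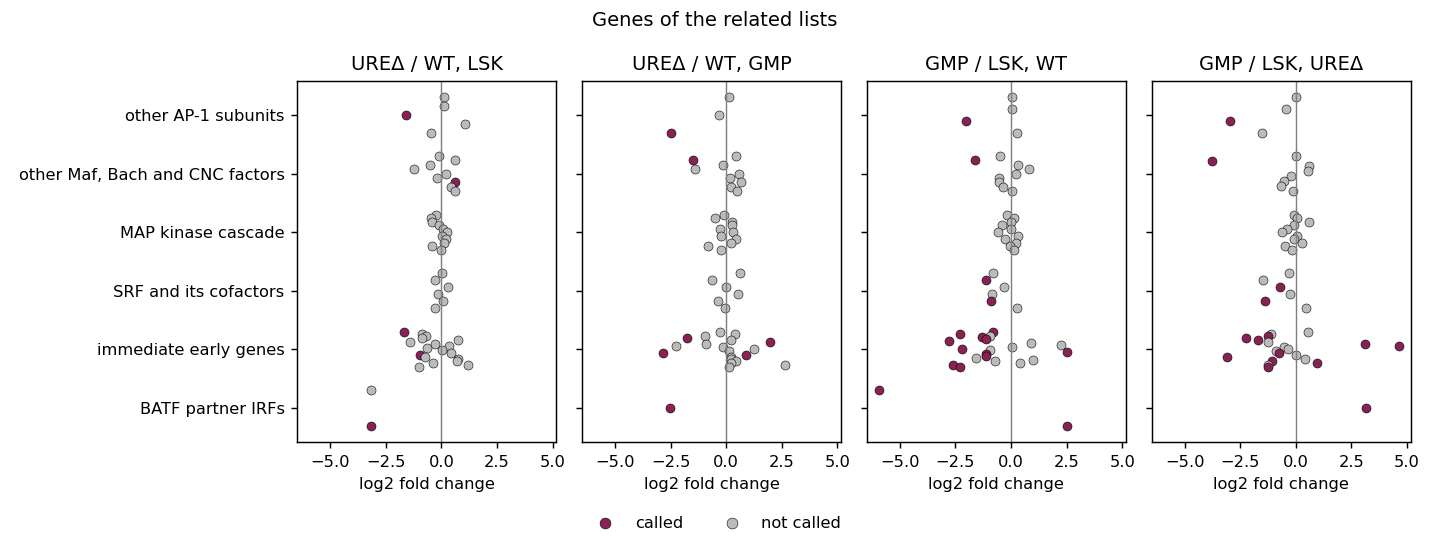
Log2 fold change (edgeR) of the tested genes of 6 related lists in the 4 comparisons, with 1 point per gene; dark points were called. MAP kinase cascade genes have no dark point, and immediate early genes have 10 dark points below 0 and 1 above in GMPs against LSKs of WT mice.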

How the data were processed

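Libraries were prepared by the authors from up to 10 ng of total RNA of sorted cells, without strand information or molecular identifiers, so that intervals and floors cover counting error only. Reads were quantified per transcript by the authors with Salmon and summed to genes. The deposited values are whole-number estimated counts per gene on GRCm38, and the annotation release is not given in the sources used here. All 16 columns were mapped to samples by name.

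Each comparison was fitted on its own 8 libraries, and the interaction on all 16, in edgeR 4.0.16 (TMM, filterByExpr, glmQLFit, glmQLFTest) with Benjamini-Hochberg adjustment over all genes tested. A call needed an adjusted p under 0.05 and, except for the interaction, a fold change above 1.5. DESeq2 1.42.0, with size factors of its own, was an alternative. R 4.3.3 and Python 3.11.15 (pandas 2.3.3, scipy 1.17.1) were used. Log2 CPM had a prior count of 2. Single genes were also compared by exact two-sided permutation of 4 against 4 libraries. The scripts were tested on simulated data in which 200 genes, chosen among those with higher mean counts, changed 4-fold. The main test recovered 76.4% of them for genotype in LSKs, with 7 false calls. The interaction recovered 45.5%, with 10 false calls, so a term that did not pass can still hold a difference of that size. Replicates were not duplicates (lowest chi-square per degree of freedom 29.6). Of 54347 gene identifiers, 54094 were found in GENCODE M21, from which positions and exon lengths were taken.

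Samples with the same replicate number deviated together from their group means (correlations of 0.305 to 0.610 between genotypes in LSKs, 0.282 to 0.624 in GMPs, 0.470 to 0.766 between cell types in WT and 0.442 to 0.577 in UREΔ). Between genotypes, 3 of 4 libraries matched best with the library of their own number, in LSKs and in GMPs. Between cell types, all 4 did so in each genotype. The labels state no pairing. Whether these correlations reflect paired samples or only the replicate difference shared by all groups was not tested. The main fits therefore had no block, and the fit with the replicate number as a block was an alternative.

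Named genes were all 9 members, *Spi1*, up to 4 genes of each related list or marker list with the smallest adjusted p, and for each member above 3 log2 CPM the 3 genes with the highest Pearson correlation. *Irf4*, *Mapk8*, *Fbxw7*, *Ms4a2*, *Il7r*, *Ppp1r15a* and *Socs3*, and the list members at 0 or below 1 CPM, were named after their values were seen. The members and lists were chosen with earlier results of these data known.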

Additional observations from a re-analysis of the deposited data

Results flagged for a closer look

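In 4 of 35 groups of 4 libraries, the highest library stood apart from the other 3 by Dixon's criterion. Chance gives about 1 in 20 for continuous values, but that rate does not apply where the other 3 libraries are at 0, since any count then meets the criterion, as for *Fosb* in WT LSKs and *Batf3* in UREΔ GMPs. *Fos* measured 4.80 CPM (112 counts) in WT GMP replicate 2 and 2.42 to 2.81 CPM in the other WT GMP libraries. Without that library the *Fos* difference between GMPs and LSKs in WT was 0.98 on the log2 scale (adjusted p = 0.117). *Fosb* measured 0.195 CPM (6 counts) in WT LSK replicate 1 and was at 0 in the other WT LSK libraries, and it measured 0.401 CPM (10 counts) in UREΔ LSK replicate 1 against at most 0.0669 CPM in the others. *Batf3* measured 0.0502 CPM in UREΔ GMP replicate 3, which is a single count, and 0 in the other UREΔ GMP libraries. The causes were not tested.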

How the results depend on the processing

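*Maf* stayed called in LSKs under every alternative run, at log2 fold changes of 3.13 to 3.85, and *Jun* and *Maf* kept their direction between the cell types. Counts of called genes moved more. By DESeq2 they were 1638 for genotype in LSKs, 1984 in GMPs and 619 for the interaction, and with the replicate block 1433, 2260 and 1047, against 930, 1148 and 194. Replicates 2 and 3 alone gave 386, 108, 2507 (WT), 810 (UREΔ) and 2 (interaction), and the Y-linked covariate gave 521 in LSKs and 706 in GMPs. Leaving out 1 library gave 565 to 961, 715 to 1176 and 84 to 283.
Members called in LSKs (1) became 2 by DESeq2 and with the block (*Fosl2* added) and 1 to 2 on leaving out a library. In GMPs (0) they became 1 by DESeq2, without the filter and with the block, and 0 to 1. In WT cell types (3) they became 1 with replicates 1 and 4 and 0 with 2 and 3, in UREΔ (3) 1 with 2 and 3 (*Maf*) and 1 to 3, while replicates 1 and 4 called *Maf*, *Fos* and *Junb* (-0.73, adjusted p = 0.0163) in place of *Jun*, and in the interaction (0) 1 by DESeq2, with the block and with the Y covariate, and 0 to 1. Without the filter, *Fos* lost its call between the cell types in both genotypes, which left 2 members called in each. In UREΔ the same held on counts thinned to the smallest library, on library totals and with the Y covariate. Beside the calls given in the report, the block changed no other call of a member.
The values that turned sign were not called. In LSKs, replicates 2 and 3 gave *Jund* -0.012, *Fos* 0.29 and *Batf* 0.073, and leaving out a library gave *Junb* -0.013 to 0.93, *Jund* -0.20 to 0.49, *Fos* -0.42 to 0.057 and *Batf* -0.37 to 0.027. In GMPs, *Junb* was 0.27 with the block and 0.80 in replicates 2 and 3, *Jund* -0.11 and *Batf* -0.065 there, and *Batf* -0.051 with the Y covariate. Leaving out a library gave *Junb* -0.69 to 0.18, *Fos* -0.33 to 0.34 and *Batf* -0.14 to 0.22. In WT cell types, *Junb* was 0.051 with RLE factors, 0.062 by DESeq2, 0.0057 unfiltered, 0.0018 in the joint fit and 0.15 in replicates 1 and 4, with -0.47 to 0.58 on leaving out a library. *Fosl2* was -0.25 on library totals (chosen after seeing the data), -0.036 with the block and -0.22 in replicates 2 and 3, with -0.46 to 0.42. In UREΔ, replicates 1 and 4 gave *Jund* 0.0218 and *Batf* 0.0217. For the interaction, replicates 2 and 3 gave *Junb* 0.59, *Jund* -0.10, *Fos* -0.22 and *Batf* -0.13, and leaving out a library gave *Fos* -0.12 to 0.55 and *Batf* -0.027 to 0.39. The causes were not tested. *Fosb* and *Batf3* had at most 10 and 22 counts per library, and *Jund* at most 63, which limits their precision.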
